A study of Mus musculus with 12 samples.

Results

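Alpk3, Rrad, Vim and Nxpe2 are 4 genes, of 55487 listed, whose transcripts were followed here across zinc deprivation and ZIP10 knockdown in differentiating G1E-ER4 cells. They were chosen by symbol from the measured values themselves: Nxpe2 for its large increase with the zinc chelator DTPA whether or not ZIP10 was lowered, and the other 3 for large increases mostly where both treatments were combined. Those increases are therefore given as descriptions, with no test. Tests are given for genes related to or next to the 4, and for Nxpe2 in siZIP10 against siControl cells, a difference that was not itself a ground for the choice although both groups served as baselines of the DTPA increases.

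G1E-ER4 cells are mouse erythroid progenitors without a working Gata1 gene of their own; they carry a GATA1 fused to an estrogen receptor domain, so that estradiol sets off red cell maturation. All samples come from this single cultured line, grown in erythropoietin and Kit ligand. The siZIP10+DTPA group received an siRNA against ZIP10, a zinc importer encoded by Slc39a10, and 25 µM DTPA, which binds zinc outside the cell. The siControl+DTPA group received a control siRNA and the same DTPA, the siZIP10 group the ZIP10 siRNA without DTPA, and the siControl group the control siRNA without DTPA. All groups were nucleofected with siRNA on 2 occasions 24 h apart, were given 100 nM β-estradiol at the second, and were collected 24 h after DTPA and estradiol were added.

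Levels are TPM, read counts scaled for transcript length and then for library size, from 3 biological replicates per group by the labels. The siControl+DTPA replicate 3 file repeats siZIP10 replicate 1 in 55487 of 55487 values and was left out, so siControl+DTPA has n = 2 and the other groups n = 3. Reads recovered from the TPM values numbered between 19.6 M and 24.7 M in the 11 libraries. They cover the 53170 genes matched to the annotation by a unique name, not all reads of a library. Slc39a10 averaged 5.10 TPM in siZIP10+DTPA and 21.1 TPM in siControl+DTPA cells, and 0.627 TPM in siZIP10 against 2.62 TPM in siControl cells, lower with the ZIP10 siRNA at either zinc level. Its level in siZIP10+DTPA cells was still above that in siControl cells. The zinc-binding metallothionein Mt2 averaged 22.1 TPM in siZIP10+DTPA and 17.1 TPM in siControl+DTPA cells, against 2413 TPM in siZIP10 and 2039 TPM in siControl cells. Summed erythroid markers lay between 38897 and 55211 TPM in every library, with 12 of 13 markers found by name.

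The 4 genes are not red cell genes in the usual sense. Alpk3 encodes an alpha kinase known from heart and skeletal muscle, where its loss causes cardiomyopathy. Rrad encodes a small GTPase of the RGK family, which inhibits voltage-gated calcium channels and is best known in muscle. Vim encodes vimentin, the type III intermediate filament protein of mesenchymal cells and leukocytes, which mammalian erythroid cells lose as they mature. Nxpe2 encodes a member of the neurexophilin and PC-esterase domain family, whose function is little known.

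In the mm10 assembly, GENCODE M21 places Alpk3 at chr7:81057600-81105612 on the + strand, with 6445 bases of merged exons, and Rrad at chr8:104628070-104631327 on the - strand, with 1577. Vim lies at chr2:13573927-13582826 on the + strand, with 4743 bases of exon, and Nxpe2 at chr9:48318006-48353454 on the - strand, with 4102. The genes sit on 4 different chromosomes, so no pair of them shares a locus.

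Promoters are shown because 3 of these genes were high in the same libraries, and because Nxpe2 behaved differently from them. Of the 4 genes, 3 (all but Rrad) matched an entry among the RefSeq promoters (GRCm38.p6), each running from 250 bases before to 50 after the start of transcription. Sequences read 5′ to 3′ on the strand of the gene. Capitals mark a TATA box (TATAAA) in Alpk3 and Vim and GATA-type matches (here CTATCA, the reverse complement of TGATAG) in Nxpe2, motifs chosen for marking after the sequences had been seen.
Alpk3 promoter, chr7:81057350-81057649, + strand: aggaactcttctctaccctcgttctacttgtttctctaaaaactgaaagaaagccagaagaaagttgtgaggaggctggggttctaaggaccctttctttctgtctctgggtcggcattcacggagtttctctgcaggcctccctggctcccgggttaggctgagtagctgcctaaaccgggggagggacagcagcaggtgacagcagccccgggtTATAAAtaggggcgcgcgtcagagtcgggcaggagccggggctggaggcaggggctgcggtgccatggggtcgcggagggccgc
Vim promoter, chr2:13574061-13574360, + strand: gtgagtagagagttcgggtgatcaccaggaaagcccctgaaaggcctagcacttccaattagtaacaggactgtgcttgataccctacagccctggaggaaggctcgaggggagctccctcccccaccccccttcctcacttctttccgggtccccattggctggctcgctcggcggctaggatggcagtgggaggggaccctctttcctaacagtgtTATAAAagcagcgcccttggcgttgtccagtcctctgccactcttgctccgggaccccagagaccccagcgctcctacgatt
Nxpe2 promoter, chr9:48340849-48341148, - strand: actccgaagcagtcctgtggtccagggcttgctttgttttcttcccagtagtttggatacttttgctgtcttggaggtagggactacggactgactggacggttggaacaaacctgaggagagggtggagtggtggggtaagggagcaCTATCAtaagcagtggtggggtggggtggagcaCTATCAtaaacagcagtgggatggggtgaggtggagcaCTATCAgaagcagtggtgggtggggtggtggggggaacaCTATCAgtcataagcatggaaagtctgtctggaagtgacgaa

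The Alpk3 and Vim promoters both held a TATAAA, starting 34 and 32 bases before the start of transcription, a motif present on either strand in 13.6% of 32851 RefSeq promoters of the same length. The Nxpe2 promoter held none. It held 4 matches to the GATA motif (AGATAA, the form AGATAG, the form TGATAA or the form TGATAG, on either strand), with first bases 102, 69 and 31 bases before the start and at base 8 after it. At least 1 such match was present in 29.8% of promoters and 4 or more in 0.332%. The 4 matches in Nxpe2 stand in similar, repeated stretches of the printed sequence. They are therefore not separate occurrences to set against that share. The RefSeq starts of Nxpe2 and Vim lie inside the GENCODE spans of these genes, which extend farther upstream. The Nxpe2 span runs upstream to base 48353454, far beyond its window, which ends at 48341148. The Vim span begins at base 13573927, close to its window, which begins at 13574061.

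None of the 3 windows held the core of the metal response element, to which the zinc sensor MTF1 binds in metallothionein genes (TGCACNC or TGCGCNC on either strand, in 25.7% of promoters). Nor did any hold the AP-1 motif (TGACTCA or TGAGTCA, 5.20% of promoters) or a CArG box (1.63%). An E-box (CAGCTG, the form CACGTG or the form CAGGTG on either strand, 37.7% of promoters) occurred 1 time in Alpk3, 55 bases before the start, and CCACCC (31.5% of promoters) 1 time in Vim and 5 times in Nxpe2. A match describes letters in a window and is not a measured binding site. The Alpk3 and Vim windows had 59.7% and 59.3% G+C with 15 and 11 CpG dinucleotides, and the Nxpe2 window had 53.3% with 4, where the median promoter had 52.7% and 7.

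Alpk3 stood at 64.6, 59.9 and 61.4 TPM in siZIP10+DTPA libraries and at 9.67 and 9.94 TPM in siControl+DTPA libraries, against 4.00, 4.34 and 4.37 TPM in siZIP10 and 3.39, 2.77 and 2.88 TPM in siControl libraries. The siZIP10+DTPA libraries were far above all others, and no pair of groups overlapped. The means were 61.97 ± 2.37 TPM in siZIP10+DTPA (SD, n = 3) and 9.80 ± 0.19 in siControl+DTPA (SD, n = 2), with 4.24 ± 0.21 in siZIP10 and 3.01 ± 0.33 in siControl cells (SD, n = 3 each). The values rest on 2745 to 3211 recovered reads in siZIP10+DTPA libraries and on 115 to 166 in siControl libraries, so the low groups carry the larger counting error. On the TPM scale Alpk3 was 20.6-fold higher with both treatments, 3.26-fold higher with DTPA and 1.41-fold higher with siZIP10, each against siControl. In bulk RNA, a change in the share of cells that express a gene and a change in RNA per cell cannot be told apart.

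Rrad stood at 71.8, 71.3 and 72.5 TPM in siZIP10+DTPA and 16.9 and 17.5 TPM in siControl+DTPA libraries, against 12.4, 13.7 and 12.6 TPM in siZIP10 and 7.50, 7.38 and 9.82 TPM in siControl libraries. The groups kept the order seen for Alpk3 and again did not overlap, with siControl replicate 3 the highest of its group. The means were 71.84 ± 0.59 TPM in siZIP10+DTPA, 17.18 ± 0.43 in siControl+DTPA, 12.89 ± 0.72 in siZIP10 and 8.23 ± 1.37 in siControl cells (SD, n as for Alpk3). Rrad was 8.72-fold higher with both treatments, 2.09-fold with DTPA and 1.57-fold with siZIP10. Its exons are short and its reads few, 81 to 96 in siControl and 792 to 935 in siZIP10+DTPA libraries.

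Vim stood at 151.9, 158.3 and 161.3 TPM in siZIP10+DTPA and 25.4 and 24.5 TPM in siControl+DTPA libraries, against 30.3, 28.3 and 30.1 TPM in siZIP10 and 17.6, 16.9 and 18.3 TPM in siControl libraries. Here the single treatments came in the other order: each siZIP10 library was above both siControl+DTPA libraries, while for Alpk3, Rrad and Nxpe2 siControl+DTPA was above siZIP10. The means were 157.15 ± 4.81 TPM in siZIP10+DTPA, 24.98 ± 0.62 in siControl+DTPA, 29.56 ± 1.08 in siZIP10 and 17.61 ± 0.68 in siControl cells (SD, n as for Alpk3). Vim was 8.92-fold higher with both treatments, 1.42-fold with DTPA and 1.68-fold with siZIP10.

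Nxpe2 stood at 43.8, 47.3 and 45.3 TPM in siZIP10+DTPA and 46.1 and 42.7 TPM in siControl+DTPA libraries, against 12.2, 11.2 and 10.5 TPM in siZIP10 and 9.26, 9.29 and 9.87 TPM in siControl libraries. Its values followed DTPA: the siZIP10+DTPA and siControl+DTPA libraries overlapped and lay well above the rest. The means were 45.49 ± 1.76 TPM in siZIP10+DTPA, 44.36 ± 2.42 in siControl+DTPA, 11.31 ± 0.86 in siZIP10 and 9.47 ± 0.34 in siControl cells (SD, n as for Alpk3). Nxpe2 was 4.80-fold higher with both treatments, 4.68-fold with DTPA and 1.19-fold with siZIP10.

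**Figure D1:**
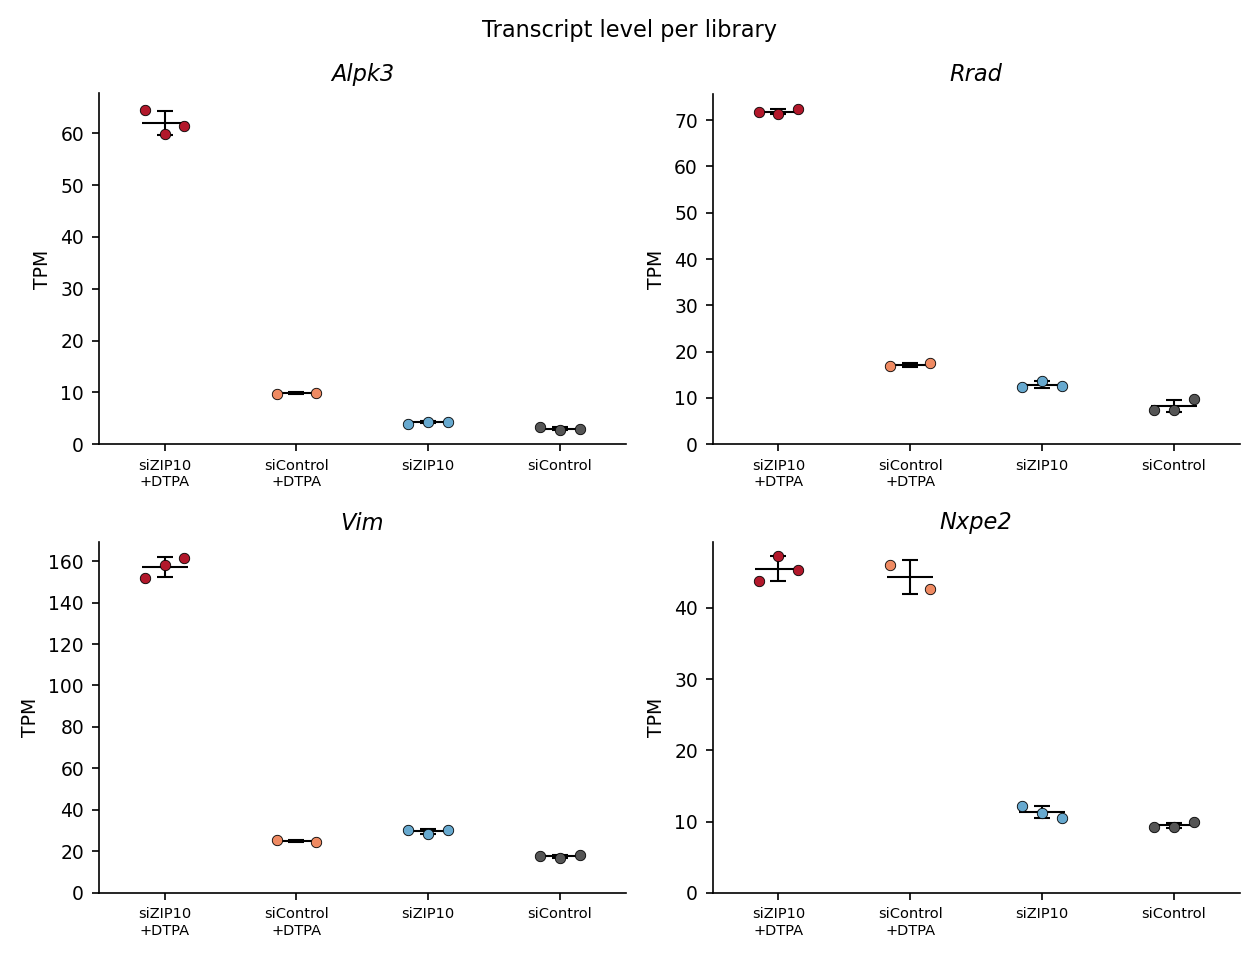
TPM of Alpk3, Rrad, Vim and Nxpe2 in each of 11 libraries; points are libraries, the wide bar is the group mean and the error bar the SD (n = 3, and n = 2 for siControl+DTPA). Alpk3, Rrad and Vim are high in siZIP10+DTPA alone, while Nxpe2 is high in both DTPA groups.

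The effect of siZIP10 without DTPA was tested for Nxpe2, with the limit that both groups were baselines of the increases it was chosen for. Nxpe2 was higher in siZIP10 cells, in 3 of 3 libraries, by 0.23 on the log2(TPM + 1) scale (SE 0.058, adjusted p = 0.0127, limma moderated test with Benjamini-Hochberg adjustment over 11379 genes). The same adjusted threshold of 0.05 called 13.1% of all tested genes higher and 17.5% lower in that comparison, so a change of this kind was common. The call held in 20 of 21 alternative analyses, with changes of 0.18 to 0.28 and adjusted p of 0.00815 to 0.701 over all 21. It was lost (adjusted p = 0.701) where the duplicated file was kept as labelled.

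Set against the single treatments, the 4 genes showed 2 shapes. The Alpk3 fold with both treatments was 4.49 times the product of its single-treatment folds, that of Vim 3.75 times and that of Rrad 2.67 times. For Nxpe2 it was 0.859 times the product. In TPM added over siControl, Alpk3 gained 59.0 with both treatments where the single gains sum to 8.02, Rrad 63.6 where they sum to 13.6, and Vim 139.5 where they sum to 19.3. Nxpe2 gained 36.0 TPM where its single gains sum to 36.7.

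Read as DTPA effects, Alpk3 was 14.6-fold higher with DTPA in siZIP10 cells and 3.26-fold in siControl cells, and Vim 5.32-fold and 1.42-fold. Rrad was 5.57-fold higher with DTPA in siZIP10 cells and 2.09-fold in siControl cells. Nxpe2 was 4.02-fold higher in siZIP10 cells and 4.68-fold in siControl cells, alike in size at either ZIP10 level. These comparisons share libraries, and since the members were chosen on them the differences were not tested. The siControl+DTPA level was 15.8% of the siZIP10+DTPA level for Alpk3, 23.9% for Rrad, 15.9% for Vim and 97.5% for Nxpe2.

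On the log2(TPM + 1) scale, which understates changes of low genes, the differences between siZIP10+DTPA and siControl were 3.98 (SE 0.067) for Alpk3, 2.99 (SE 0.086) for Rrad, 3.09 (SE 0.041) for Vim and 2.15 (SE 0.058) for Nxpe2. By size among 11379 tested genes these were the 3rd, 13th, 10th and 78th largest increases. With DTPA in siControl cells the order was another: Nxpe2 was 10th with a difference of 2.11 (SE 0.065), Alpk3 26th with 1.43 (SE 0.075), Rrad 78th with 0.99 (SE 0.096) and Vim 452nd with 0.48 (SE 0.046). The median difference over all tested genes was -0.08 with both treatments, -0.04 with DTPA and -0.01 with siZIP10.

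**Figure D2:**
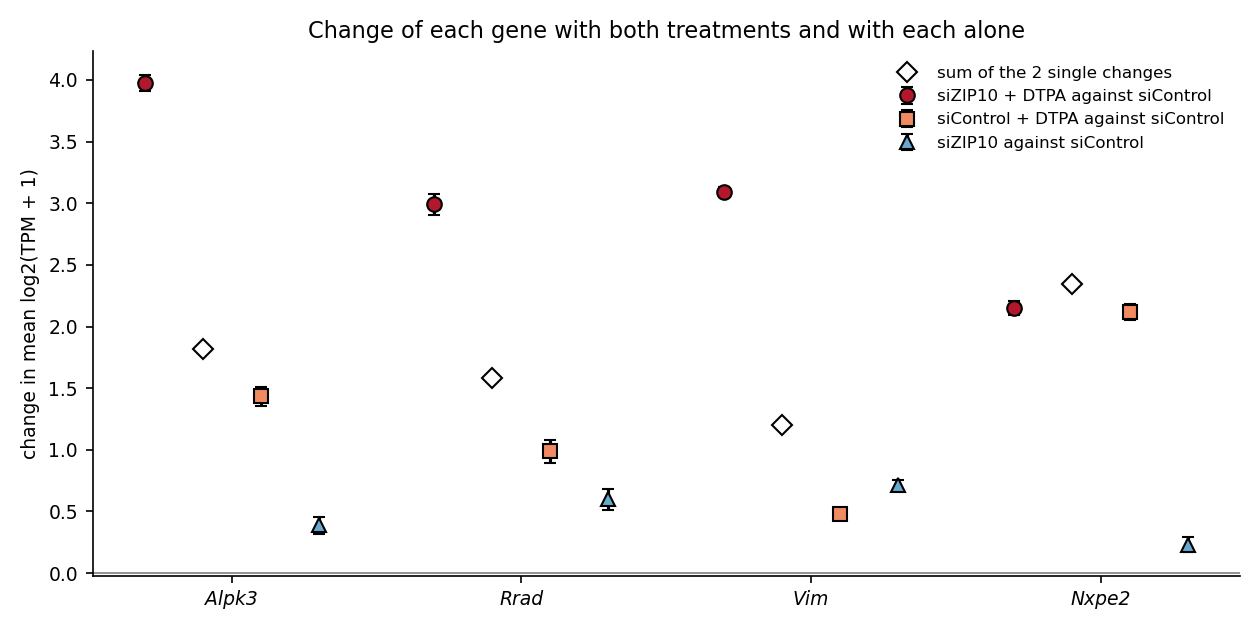
Difference in mean log2(TPM + 1) from siControl for each gene, with the model's SE; open diamonds give the sum of the single-treatment differences. For Alpk3, Rrad and Vim the combined difference lies above that sum (1.82, 1.59 and 1.20), and for Nxpe2 (2.35) slightly below it.

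Other features of the siZIP10+DTPA libraries moved along with these increases. Mitochondrial ribosomal RNA made up 1.43% to 1.45% of TPM there and 0.262% to 0.421% in the other 8 libraries, while the share from protein-coding genes of the nucleus was 77.3% to 79.6% there and 82.6% to 84.1% elsewhere. Summed megakaryocyte markers lay between 57.3 and 58.5 TPM in siZIP10+DTPA and 25.7 and 26.7 TPM in siControl+DTPA libraries, against 17.2 to 18.7 TPM in siZIP10 and 16.2 to 17.5 TPM in siControl libraries. Of these 9 markers Gp1ba and Itgb3 carried most of the sum, and Gp1bb and Ppbp were listed at 0 in every library.

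Summed mast cell and basophil markers lay between 7.13 and 10.4 TPM in siZIP10+DTPA and 1.66 and 2.51 TPM in siControl+DTPA libraries, against 0.256 to 1.28 TPM in siZIP10 and 0.913 to 1.51 TPM in siControl libraries. Mcpt2 carried most of the sum in siZIP10+DTPA libraries, averaging 6.64 TPM there and 0.812 TPM in siControl libraries. It was the only 1 of these 10 markers to average 1 TPM or more. Mcpt8, Ms4a2, Fcer1a and Cma1 were listed at 0. Myeloid markers summed to 5.86 to 6.80 TPM in siZIP10+DTPA and 3.20 to 3.22 TPM in siControl+DTPA libraries, against 2.98 to 5.16 TPM in siZIP10 and 2.33 to 3.32 TPM in siControl libraries, most of it from Cd68. Mpo, Elane, Ctsg, Itgam, Adgre1, S100a8 and S100a9 were listed at 0.

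Fibroblast and stromal markers, of cells rich in vimentin, summed to at most 0.0677 TPM in any library, with 6 of 8 listed at 0 throughout. Striated muscle markers, of tissue rich in Alpk3 and Rrad, summed to 0.424 to 1.14 TPM in siZIP10+DTPA and 0.468 to 0.473 TPM in siControl+DTPA libraries, against 0.184 to 0.491 TPM in siZIP10 and 0.121 to 0.275 TPM in siControl libraries. Tnnt2 and Tnnt3 were listed at 0 and Des reached at most 0.115 TPM. Endothelial markers summed to between 19.8 and 31.0 TPM over all libraries, nearly all from Egfl7, with Cdh5 and Emcn listed at 0. Lymphoid markers summed to 2.38 to 3.15 TPM in siZIP10+DTPA and 0.686 to 0.901 TPM in siControl+DTPA libraries, against 0.583 to 1.61 TPM in siZIP10 and 0.296 to 1.08 TPM in siControl libraries, nearly all from Cd79a. The part of these shifts in the increases of the 4 genes was not tested. Some genes of general use, such as the lamin gene Lmnb2, are listed at or near 0 in these files, so a 0 is reported only as listed.

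Genes at the same loci were examined next. Platr32, a non-coding gene inside an intron of Alpk3 on the same strand, shares no exon base with it. Platr32 stood at 14.4, 12.2 and 11.4 TPM in siZIP10+DTPA and 2.07 and 2.00 TPM in siControl+DTPA libraries, against 0, 0.747 and 1.08 TPM in siZIP10 and 0.334, 1.09 and 1.23 TPM in siControl libraries. It was high in the libraries where Alpk3 was high, and reads from unspliced Alpk3 RNA cannot be told apart from those of Platr32. Platr32 was 2.89 higher on the log2(TPM + 1) scale in siZIP10+DTPA against siControl cells (SE 0.27, adjusted p = 3.42e-06, limma). Its reads were few, 31 to 42 in siZIP10+DTPA and 1 to 3 in siControl libraries. Since they may come from Alpk3, which was chosen for this increase, the p-value is no separate support for it.

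The protein-coding genes on either side of Alpk3 did not share its increase. Zfp592, a zinc finger gene 12436 bases away, averaged 86.3 TPM in siZIP10+DTPA and 97.5 TPM in siControl cells, lower by 0.18 in log2(TPM + 1) (SE 0.036, adjusted p = 0.00140, limma), a call lost under quantile normalization (adjusted p = 0.925). Slc28a1, on the other side, was listed at no more than 0.0458 TPM.

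At the Rrad locus, the antisense gene Gm33023 shares 141 exon bases with Rrad, 8.94% of the Rrad exons. The library kit marks strand, but the strand setting used in counting is not given in the sources used here, so reads in the shared stretch are uncertain. Gm33023 reached at most 0.787 TPM in any library and missed the filter of 1 TPM on the mean. Ciao2b, 8511 bases away and part of the cytosolic iron-sulfur assembly machinery, averaged 102.4 TPM in siZIP10+DTPA and 164.3 TPM in siControl cells, and fell by 0.68 in log2(TPM + 1) (SE 0.037, adjusted p = 4.05e-08, limma). Cdh16, on the other side, reached at most 0.165 TPM.

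Next to Vim, Trdmt1, which encodes an RNA cytosine methyltransferase, averaged 4.09 TPM in siZIP10+DTPA and 4.32 TPM in siControl cells and did not pass the test (adjusted p = 0.530, limma). St8sia6, on the other side of Vim, was listed at 0 in all 11 libraries.

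Nxpe4, a relative of Nxpe2 on the opposite strand, overlaps the span of Nxpe2 but shares no exon base with it. Nxpe4 stood at 51.5, 47.0 and 50.2 TPM in siZIP10+DTPA and 44.4 and 42.5 TPM in siControl+DTPA libraries, against 31.5, 32.9 and 34.6 TPM in siZIP10 and 23.5, 20.3 and 22.8 TPM in siControl libraries. Like Nxpe2 it was highest in the DTPA groups, but its spread between groups was smaller. Nxpe4 was 1.13 higher in log2(TPM + 1) in siZIP10+DTPA against siControl (SE 0.059, adjusted p = 3.07e-08, limma), where Nxpe2 differed by 2.15. Rexo2, an exonuclease gene beyond Nxpe2, went the other way, with 93.3 to 98.2 TPM in siZIP10+DTPA and 194.3 to 201.1 TPM in siControl libraries, and fell by 1.05 (SE 0.031, adjusted p = 3.83e-10, limma). Cadm1, on the other side, was listed at 0.

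**Figure D3:**
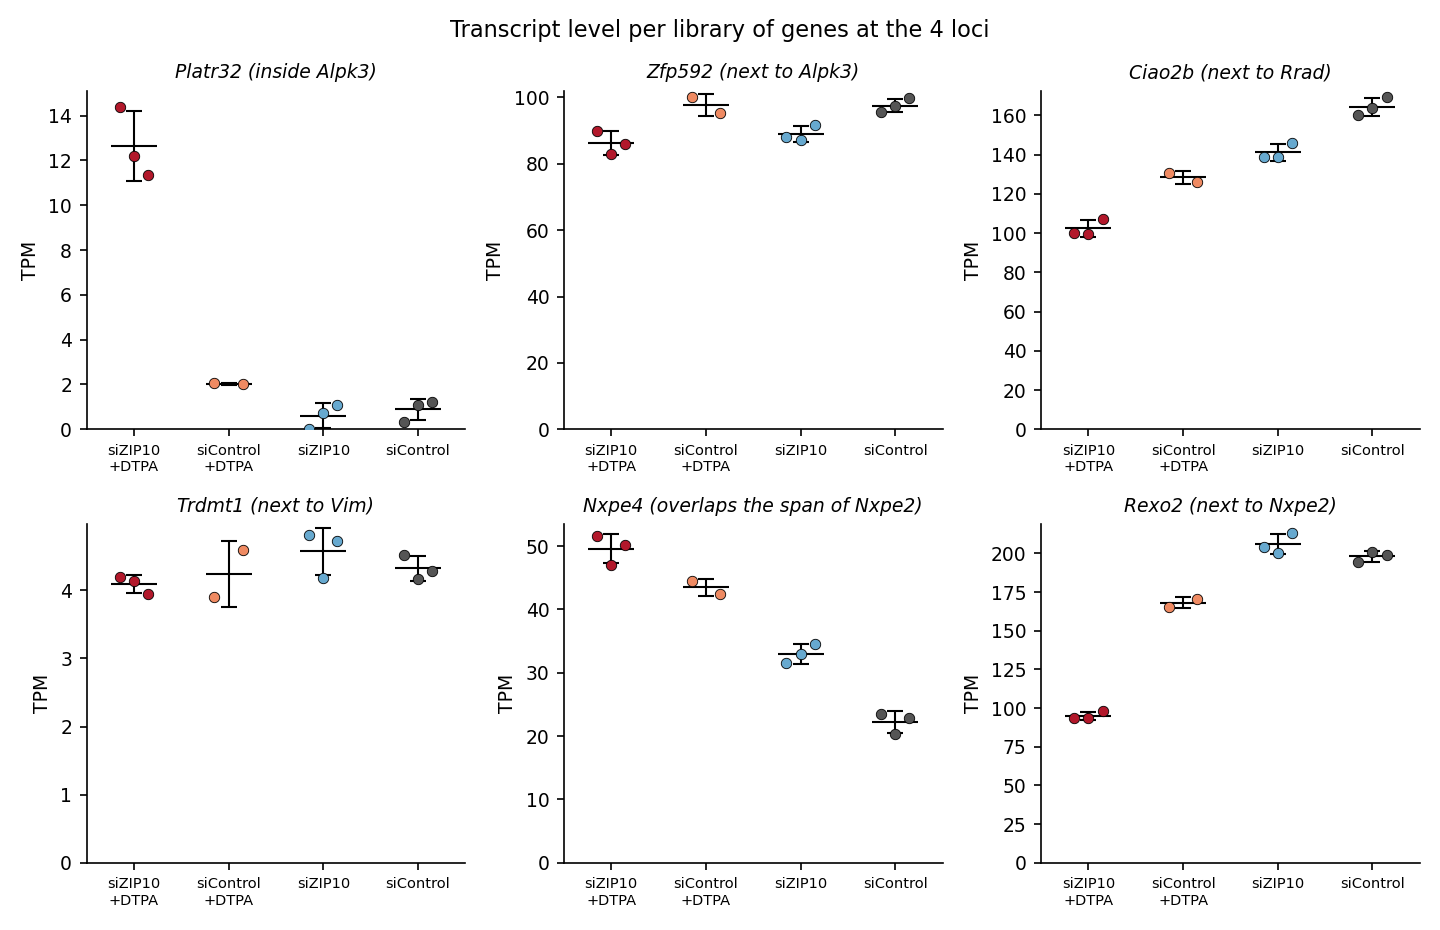
TPM per library of 6 genes that overlap or neighbour Alpk3, Rrad, Vim or Nxpe2; points are libraries, with the group mean and SD. Platr32 follows Alpk3, Nxpe4 is highest in the DTPA groups as Nxpe2 is, and Zfp592, Ciao2b, Trdmt1 and Rexo2 show no increase.

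No close relative that passed the filter rose as far with both treatments as the member it is related to, though some were highest in the same groups. The members were chosen for large increases, so smaller ones in relatives follow largely from that choice. No RGK relative of Rrad and no other type III filament gene examined passed the filter. Of the other alpha kinases, Alpk1, a sensor kinase of innate immunity, averaged 3.66 ± 0.35 TPM in siZIP10+DTPA and 1.52 ± 0.28 TPM in siControl cells (SD, n = 3 each), higher by 0.89 in log2(TPM + 1) (SE 0.14, adjusted p = 0.000168, limma). It averaged 1.54 TPM in siControl+DTPA and 1.95 TPM in siZIP10 cells, so that, like Alpk3, it was highest with both treatments. Eef2k, the kinase of translation elongation factor 2, averaged 6.72 TPM in siZIP10+DTPA and 11.9 TPM in siControl cells and fell by 0.74 (SE 0.059, adjusted p = 8.74e-07, limma). Trpm7, an ion channel with a kinase domain, averaged 89.8 and 79.6 TPM in these groups, higher by 0.17 (SE 0.034, adjusted p = 0.00105, limma). Alpk2 and Trpm6 were listed at 0.

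Of the other RGK genes, Gem and Rem1 were listed at 0 and Rem2 reached at most 0.143 TPM, so that Rrad was the one family member above 1 TPM. In the NXPE family, Nxpe3 averaged 15.4 TPM in siZIP10+DTPA and 7.57 TPM in siControl+DTPA cells, against 6.77 TPM in siZIP10 and 5.86 TPM in siControl cells. Unlike Nxpe2, Nxpe3 was highest where both treatments were combined, by 1.26 in log2(TPM + 1) over siControl (SE 0.062, adjusted p = 1.78e-08, limma). Nxpe5 was listed at 0 and Nxpe1-ps reached at most 1.09 TPM.

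Both lamin genes that passed the filter fell with both treatments. Lmnb1, of the nuclear lamina, averaged 5.62 TPM in siZIP10+DTPA and 15.5 TPM in siControl+DTPA cells, against 14.4 TPM in siZIP10 and 29.7 TPM in siControl cells, and fell by 2.21 in log2(TPM + 1) with both treatments (SE 0.055, adjusted p = 1.17e-10, limma). Lmna averaged 560.6 TPM in siZIP10+DTPA and 865.5 TPM in siControl cells and fell by 0.63 (SE 0.036, adjusted p = 6.78e-08, limma). The type III filament genes nearest to Vim in kind were listed at low values, with Des at most 0.115, Gfap at most 0.249 and Prph at most 0.0709 TPM.

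Wider lists of related genes were read against the share of all genes called. In siZIP10+DTPA against siControl, 26.7% of 11379 tested genes were called higher and 39.9% lower, and 40.1% of the calls were higher (50.2% under quantile normalization). With DTPA alone 9.98% were called higher and 18.8% lower (34.7% of calls higher, 51.1% under quantile normalization). With siZIP10 alone 13.1% were called higher and 17.5% lower (42.9% of calls higher, 54.3% under quantile normalization). For the interaction of DTPA and siZIP10 12% were called higher and 20.4% lower (37.1% of calls higher, 54.3% with scaling to protein-coding genes and 47.4% on recovered reads). For the interaction, higher means a DTPA change more positive in siZIP10 than in siControl cells, which a smaller fall also gives. Median changes below are in log2(TPM + 1) with both treatments, over the genes that passed the filter.

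Of 28 intermediate filament and plakin genes, 6 passed the filter, of which 3 were higher, 2 lower and 1 not called, with a median of 0.10. Plec, which encodes plectin, a linker that binds vimentin filaments, averaged 5.49 TPM in siZIP10+DTPA and 3.15 TPM in siControl cells, higher by 0.65 (SE 0.083, adjusted p = 4.27e-05, limma). Macf1, a linker of actin and microtubules, was higher by 0.51 (SE 0.048, adjusted p = 3.98e-06, limma). Of 21 RGK and voltage-gated calcium channel genes none passed the filter and 12 were listed at 0, so the channels that Rrad is known to inhibit were not measurable here.

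Of 53 sarcomere and striated muscle genes, 48 were under 1 TPM on average and 5 passed, of which 3 were higher and 2 lower, with a median of 1.36. With no filter 8 were called, with a filter of 5 TPM 2, and 3 without siZIP10+DTPA replicate 2. Tnnc1, the calcium-binding troponin subunit of slow and cardiac muscle, stood at 28.0, 27.7 and 30.9 TPM in siZIP10+DTPA and 7.96 and 8.95 TPM in siControl+DTPA libraries, against 4.81, 6.92 and 6.26 TPM in siZIP10 and 6.31, 3.73 and 4.80 TPM in siControl libraries. It resembled Alpk3 and Rrad in being far above the rest where both treatments were combined, and was higher by 2.35 (SE 0.15, adjusted p = 1.83e-07, limma). Actn3, an actinin of fast muscle, averaged 221.6 TPM in siZIP10+DTPA and 62.3 TPM in siControl+DTPA cells, against 73.3 TPM in siZIP10 and 58.0 TPM in siControl cells, higher by 1.92 with both treatments (SE 0.054, adjusted p = 2.63e-10, limma).

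Tnni3, the inhibitory troponin subunit of the heart, moved the other way from Tnnc1. It averaged 2.90 TPM in siZIP10+DTPA and 7.67 TPM in siControl cells and fell by 1.15 (SE 0.13, adjusted p = 1.36e-05, limma).

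Of 29 genes of mesenchymal transition, of which vimentin is a standard marker, 7 passed, of which 4 were higher, 2 lower and 1 not called, with a median of 0.99. Lgals1, the galactose-binding lectin galectin-1, averaged 693.8 TPM in siZIP10+DTPA and 280.2 TPM in siControl cells, higher by 1.31 (SE 0.048, adjusted p = 1.99e-09, limma). Cd44, a hyaluronan receptor, was higher by 1.29 (SE 0.061, adjusted p = 1.30e-08, limma), Tgfb1 by 1.06 (SE 0.051, adjusted p = 1.54e-08) and its receptor gene Tgfbr1 by 0.99 (SE 0.046, adjusted p = 1.14e-08). Of the 29 genes 15 were listed at 0, so most of the list was not measurable.

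Of 26 genes of the actin cytoskeleton and its regulator SRF, 22 were found by name and 11 passed, of which 6 were higher, 3 lower and 2 not called, with a median of 0.33. Zyx, a focal adhesion protein gene, averaged 45.6 TPM in siZIP10+DTPA and 14.6 TPM in siControl cells, higher by 1.58 (SE 0.075, adjusted p = 1.37e-08, limma). Actg1, cytoplasmic actin, was higher by 1.08 (SE 0.056, adjusted p = 2.81e-08, limma), with reads that processed pseudogenes could share. Tagln2, an actin-binding transgelin, was higher by 0.94 (SE 0.034, adjusted p = 1.60e-09, limma). Vcl, vinculin, fell by 0.58 (SE 0.034, adjusted p = 7.97e-08, limma).

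Of 22 AP-1 and immediate early genes, 12 passed, of which 9 were higher, 1 lower and 2 not called, with a median of 0.53. Egr1, an immediate early transcription factor, averaged 68.3 TPM in siZIP10+DTPA and 33.9 TPM in siControl+DTPA cells, against 26.5 TPM in siZIP10 and 18.0 TPM in siControl cells. Egr1 was higher by 1.87 with both treatments (SE 0.048, adjusted p = 1.50e-10, limma), Myc by 1.33 (SE 0.10, adjusted p = 7.64e-07), Jun by 1.03 (SE 0.063, adjusted p = 1.09e-07) and Ier2 by 0.60 (SE 0.076, adjusted p = 4.00e-05). The 2 tested NXPE genes and the 3 tested alpha kinases are those described above, with medians of 1.19 and 0.17.

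With DTPA alone fewer genes were called than with both treatments in each list except the NXPE genes, which were both higher. Intermediate filament and plakin genes had 1 higher and 2 lower of 6, sarcomere genes 1 and 1 of 5, mesenchymal transition genes 4 and 1 of 7, and actin and SRF genes 2 and 1 of 11. Of 3 alpha kinases 1 was lower, and of 12 AP-1 and immediate early genes 3 were higher.

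With siZIP10 alone, 1 intermediate filament or plakin gene was higher and 2 were lower, 1 sarcomere gene was higher, 1 mesenchymal transition gene was higher and 1 lower, 2 actin and SRF genes were higher and 1 lower, and 2 AP-1 and immediate early genes were higher. Both NXPE genes were higher, but only 1 of them was called in 16 of the 21 alternatives. No alpha kinase was called by limma, with 1 at an unadjusted p under 0.05 and 1 called in 4 of the 21 alternatives, voom on recovered reads among them. For the interaction, 4 of 5 sarcomere genes were higher (2 called in 2 alternatives), Tnni3 among them through a smaller fall with DTPA. Mesenchymal transition genes had 4 higher and 1 lower of 7. Actin and SRF genes had 5 higher and 1 lower of 11, and AP-1 and immediate early genes 5 and 1 of 12. The intermediate filament and plakin genes had 1 higher and 2 lower of 6.

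**Figure D4:**
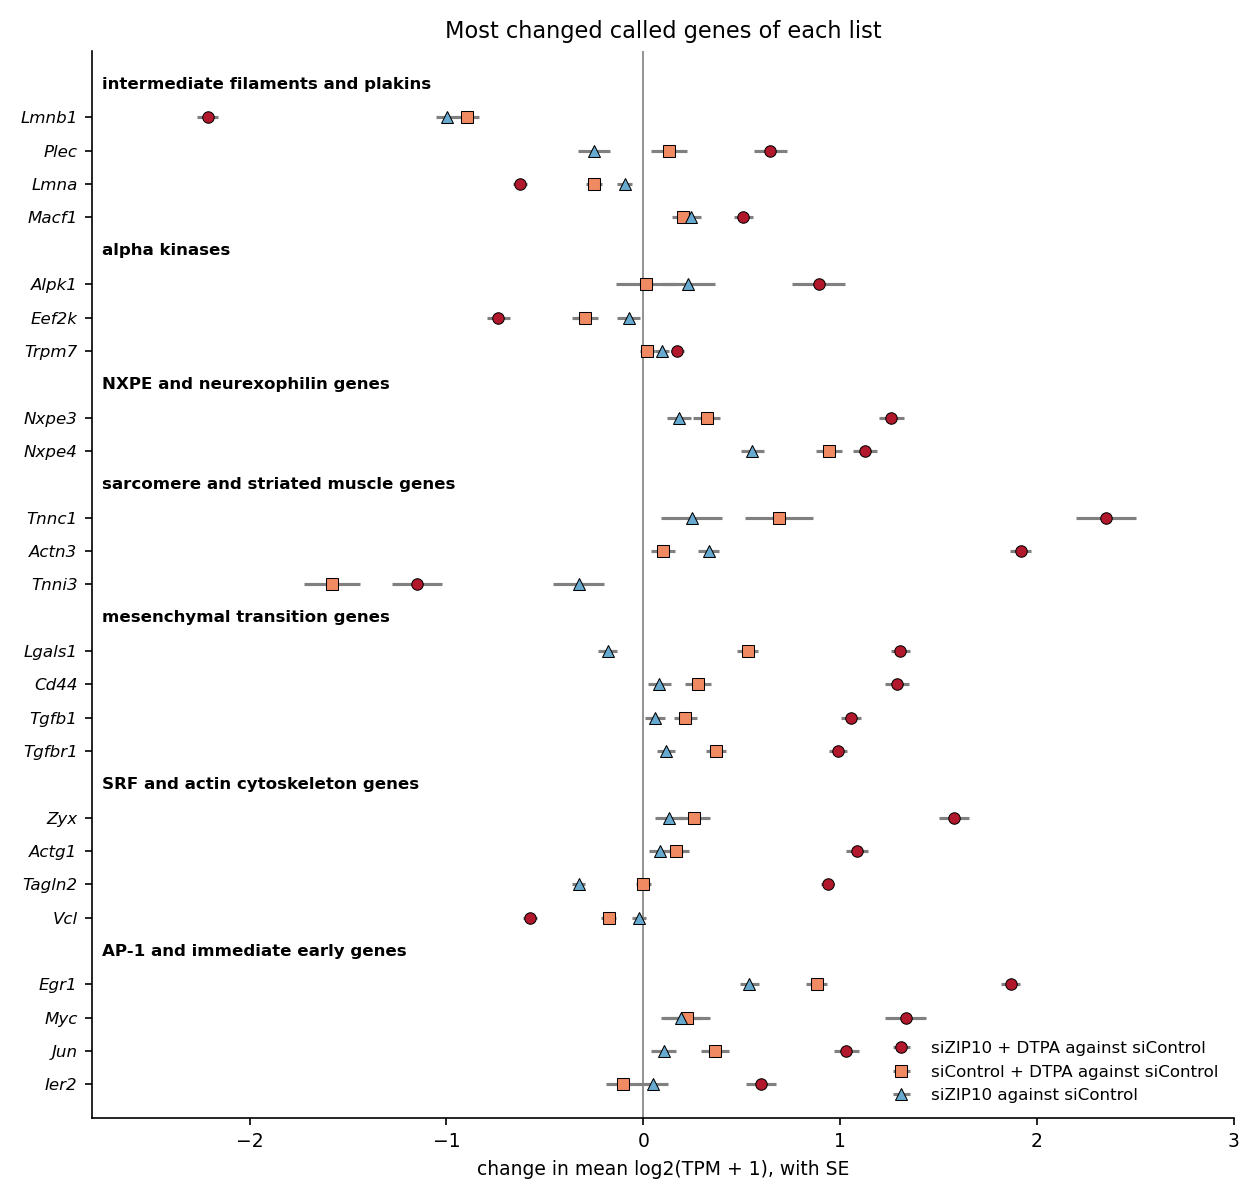
Difference in mean log2(TPM + 1) from siControl, with SE, of up to 4 called genes per list with the largest difference in siZIP10+DTPA; circles are siZIP10+DTPA, squares siControl+DTPA and triangles siZIP10. The siZIP10+DTPA circle is the farthest from 0 for every gene except Tnni3, which the choice of genes by that difference favours.

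The genes whose course over the 11 libraries was most like each of the 4 were found by the root mean square (RMS) difference in log2(TPM + 1), each gene set to its own siControl mean. This is a description with no test, and all genes share the same libraries. The added 1 TPM shrinks the changes of low genes, so genes alike on this scale can differ in fold. Of the genes below, Rbm20 and Ddc averaged only 0.906 and 0.922 TPM in siControl cells. Nearest to Alpk3 was Gm47985, annotated as protein-coding, with an RMS difference of 0.22, at 78.8 TPM in siZIP10+DTPA and 8.91 TPM in siControl+DTPA cells, against 6.27 TPM in siZIP10 and 3.69 TPM in siControl cells. Hbb-y, the embryonic beta-like globin gene, followed at 0.44, with 255.0 TPM in siZIP10+DTPA and 104.1 TPM in siControl+DTPA cells, against 30.0 TPM in siZIP10 and 23.0 TPM in siControl cells. Hdc, the histamine-forming enzyme of mast cells and basophils, came next at 0.46.

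Nearest to Rrad were Rbm20, a splicing regulator of heart muscle transcripts, at 0.18, Nyx, the retinal proteoglycan nyctalopin, at 0.19, and Prex1, an activator of Rac GTPases, at 0.20. Rbm20 stood at 14.0, 12.2 and 13.7 TPM in siZIP10+DTPA and 2.46 and 2.13 TPM in siControl+DTPA libraries, against 1.54, 1.45 and 1.40 TPM in siZIP10 and 0.871, 0.826 and 1.02 TPM in siControl libraries. As in Rrad, siControl+DTPA lay above siZIP10 in every library.

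Nearest to Vim were Nyx at 0.16, Prex1 at 0.24 and Ddc, an aromatic amino acid decarboxylase, at 0.24. Nyx stood at 30.5, 27.5 and 27.5 TPM in siZIP10+DTPA and 5.45 and 4.99 TPM in siControl+DTPA libraries, against 5.67, 5.48 and 5.52 TPM in siZIP10 and 2.46, 2.80 and 2.71 TPM in siControl libraries. As for Vim, its siZIP10 libraries were slightly above its siControl+DTPA libraries.

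The genes nearest to Nxpe2 lay farther off, against 0.22 or less for the nearest gene of the other 3. They were Hist1h2al, annotated as a processed pseudogene of a histone family whose copies can share reads, at 0.39, then Mllt3, a chromatin reader of the super elongation complex, at 0.43, and Scamp5, a secretory carrier membrane protein, at 0.46. Mllt3 averaged 125.0 TPM in siZIP10+DTPA and 67.8 TPM in siControl+DTPA cells, against 41.1 TPM in siZIP10 and 29.3 TPM in siControl cells. All 3 had a wider gap between siZIP10+DTPA and siControl+DTPA than Nxpe2 did.

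**Figure D5:**
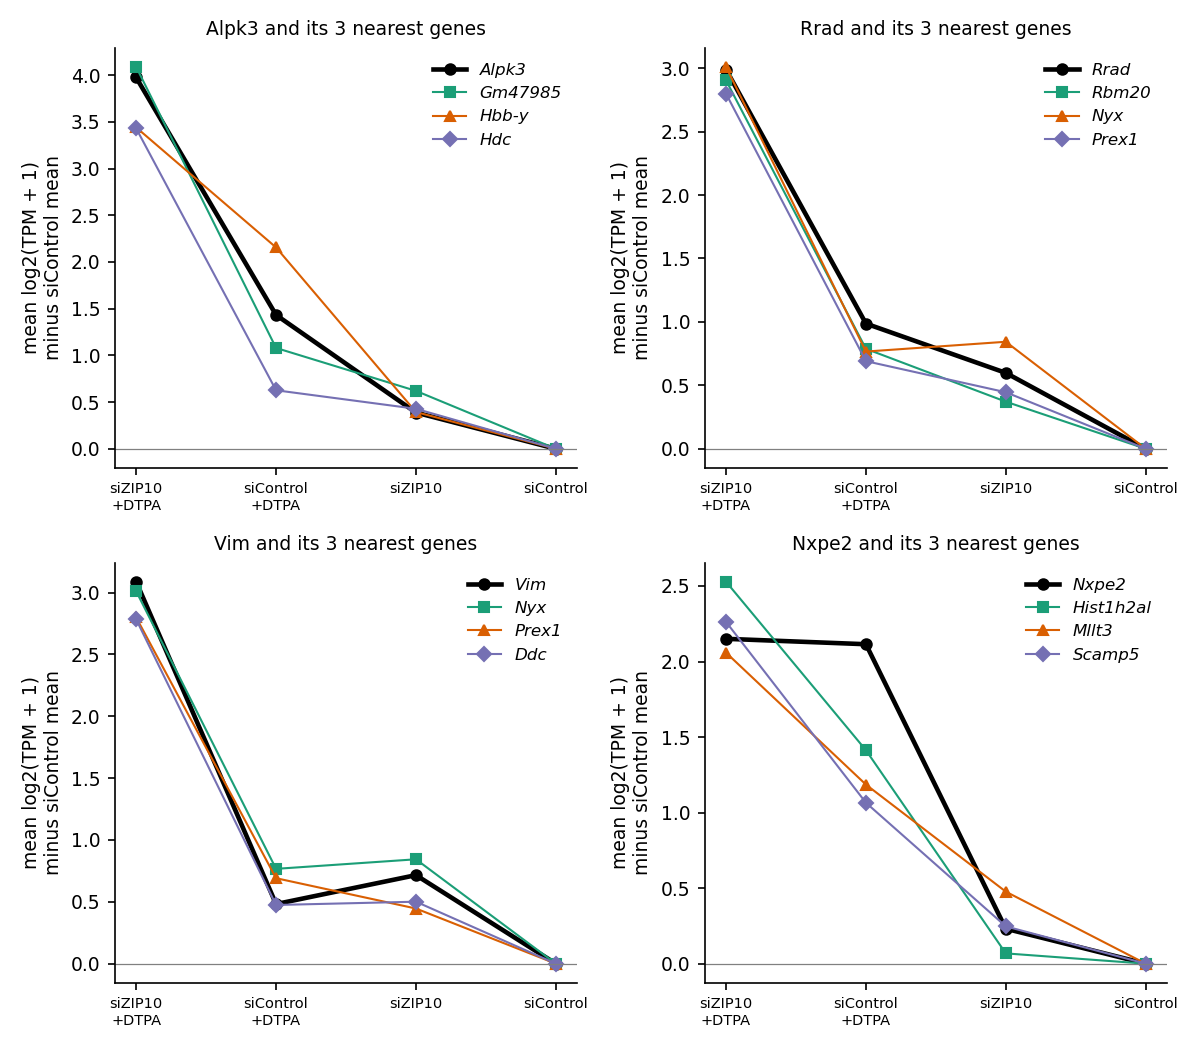
Group mean of log2(TPM + 1) minus the gene's siControl mean, for each of the 4 genes (black) and its 3 nearest genes (colours). The curves of Rrad and Vim lie close to those of their neighbours, while Nxpe2 is high in siControl+DTPA where its neighbours lie lower.

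Among the 4 genes themselves, Rrad and Vim were the most alike, with an RMS difference of 0.25. Vim was 6th among the genes nearest to Rrad, and Rrad 4th among those nearest to Vim. Alpk3 differed from Rrad by 0.57 and from Vim by 0.64, and Nxpe2 differed from Rrad by 0.69, from Vim by 0.89 and from Alpk3 by 1.01.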

How the data were processed

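The authors deposited 1 table of TPM values per library, covering 55487 genes. Per the submitters' processing notes, the tools included Trimmomatic 0.33, FastQC, HISAT2 2.1.0, featureCounts and edgeR, with the mm10 build; the sources used here do not give the annotation or settings. Of 12 files, 11 were used. The deposited TPM values carry no depth. Multiplying by GENCODE M21 exon length gave whole reads (within 0.1) for 98.9% to 99.1% of values under 20 reads. Their sums are the reads on genes matched by a unique name. Intervals of counting error are not given, and n of 2 or 3 limits the precision.

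The 11379 genes averaging 1 TPM or more were fitted as log2(TPM + 1) with limma 3.58.1 in R 4.3.3, using 4 group means and a mean trend. Two-sided p-values were adjusted by Benjamini-Hochberg within each comparison at 0.05, and the procedure was tested on simulated data. All 4 genes passed the filter. The members, the lists, the motifs and the comparisons were chosen with earlier results of these data known. Genes named are the 4 members, their relatives, overlapping and flanking genes, up to 4 called genes of largest change per list, and 3 nearest genes each; some items are not reported here. The 21 alternatives changed the pseudocount, filter, scaling, trend, libraries or block, or used voom on recovered reads. Python 3.11.15, pandas 2.3.3 and matplotlib 3.10.9 were also used.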

Additional observations from a re-analysis of the deposited data

Results flagged for a closer look

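Each gene below had a DTPA change that differed between siZIP10 and siControl cells by a test of the interaction (limma, adjusted p under 0.05 over 11379 genes). Values are log2(TPM + 1) differences, the DTPA change in siZIP10 cells minus that in siControl cells, followed in brackets by those 2 changes in the same order. The members' own interactions were not tested, since the members were chosen on them. The genes named from the lists were chosen for a large difference between siZIP10+DTPA and siControl. That difference enters the interaction, so their tests are not independent of the choice.

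Beside Alpk3, the intronic gene Platr32 had a difference of 2.42 (3.14 and 0.72). Platr32 had only 0 to 3 recovered reads in siZIP10 libraries, and its reads cannot be told apart from unspliced Alpk3 RNA. Positive differences, with a larger rise in siZIP10 cells, were 0.77 for Plec (0.90 and 0.13), 0.76 for Nxpe3 (1.08 and 0.32), 1.42 for Tnnc1 (2.11 and 0.69) and 1.48 for Actn3 (1.58 and 0.10). In the mesenchymal list they were 0.96 for Lgals1 (1.49 and 0.53), 0.93 for Cd44 (1.21 and 0.28), 0.78 for Tgfb1 (1.00 and 0.21) and 0.50 for Tgfbr1 (0.87 and 0.37). Among actin cytoskeleton genes they were 1.19 for Zyx (1.45 and 0.26), 0.83 for Actg1 (1.00 and 0.17) and 1.26 for Tagln2 (1.26 and 0.00), and among immediate early genes 0.45 for Egr1 (1.33 and 0.88), 0.92 for Myc (1.14 and 0.22), 0.56 for Jun (0.93 and 0.36) and 0.65 for Ier2 (0.55 and -0.11). Adjusted p for these and Platr32 ran from 4.61e-08 for Tagln2 to 0.00139 for Ier2.

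Alpk1 differed by 0.65 (0.66 and 0.01), with an adjusted p of 0.0343, and the call was lost in 12 of 21 alternatives. For Tnni3 the difference was 0.76 (-0.82 and -1.58), adjusted p = 0.0114: DTPA lowered it less in siZIP10 cells. Negative differences were -0.32 for Lmnb1 (-1.22 and -0.90), -0.28 for Lmna (-0.53 and -0.25), -0.37 for Eef2k (-0.66 and -0.30), -0.38 for Vcl (-0.55 and -0.18) and -0.87 for Rexo2 (-1.11 and -0.24), where DTPA lowered the gene more in siZIP10 cells. Nxpe4 also had a negative difference, -0.37 (0.57 and 0.94), with a smaller rise in siZIP10 cells. Adjusted p for the negative differences ran from 5.01e-07 for Rexo2 to 0.0128 for Lmnb1.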

How the results depend on the processing

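With a pseudocount of 0.1 the difference between siZIP10+DTPA and siControl was 4.32 for Alpk3, 3.15 for Vim and 2.25 for Nxpe2. On recovered reads with voom it was 4.42 for Alpk3, 3.21 for Rrad, 3.23 for Vim and 2.34 for Nxpe2. Scaling to protein-coding genes gave 3.18 for Vim and 2.24 for Nxpe2, with 2124 genes higher in the interaction, and quantile normalization 3.26 and 2.27, with 1727 genes higher with DTPA alone. Zfp592 with both treatments turned to 0.00318 under quantile normalization. With the duplicated file as labelled, Nxpe2 in siZIP10 against siControl was 0.23 with adjusted p = 0.701. For none of these was the cause tested.

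Leaving out 1 library at a time gave 3.93 to 4.04 for Alpk3, 2.92 to 3.11 for Rrad, 3.06 to 3.11 for Vim and 2.12 to 2.18 for Nxpe2 with both treatments, and 0.18 to 0.28 for Nxpe2 with siZIP10. Genes called ran from 694 (without siControl+DTPA replicate 1) to 1142 higher and from 1305 (without siControl+DTPA replicate 2) to 2128 lower with DTPA, 1122 to 1450 and 1562 to 1973 with siZIP10, 2737 to 3053 and 4294 to 4546 with both, and 947 to 1330 and 1798 to 2243 for the interaction. The labels do not say whether same-numbered samples were handled together. Deviations of same-numbered libraries correlated between -0.0602 and 0.0607, and those of differently numbered libraries between -0.0856 and 0.0659. No strong shared effect of the replicate number showed, which does not settle whether the samples were paired. With a replicate block Nxpe2 with siZIP10 was 0.23 (adjusted p = 0.0251), and calls numbered 3137 with DTPA, 3470 with siZIP10, 7582 with both and 3641 for the interaction, against 3272, 3480, 7583 and 3687 without it.

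Of the results on single genes and lists under the alternatives, 1714 kept direction and call or count, 64 list counts moved by over 1.5 times (with both treatments, 5 called filament and plakin genes became 3 with a filter of 5 TPM and 5 sarcomere genes 2, 3 or 8, as given above; with DTPA alone, 5 called mesenchymal genes became 3 in 4 alternatives, 2 sarcomere genes 1 in 3, 3 actin and SRF genes 1 or 5, 3 AP-1 and immediate early genes 5 or 6 and 1 alpha kinase 0 in 2; with siZIP10 alone, 2 NXPE genes became 1 in 16, 2 mesenchymal genes 1 in 3, 1 sarcomere gene 2 in 6, 3 actin and SRF genes 5 in 1 and 0 alpha kinases 1 in 4; for the interaction, 2 alpha kinases became 1 in 13, 2 NXPE genes 1 in 1 and 4 sarcomere genes 2 in 2), 15 lost a call, 2 gained one and 1 reversed. Calls in the interaction were lost for Nxpe4 (adjusted p = 0.308) and Tnni3 (adjusted p = 0.472) with the duplicated file as labelled and for Lmnb1 (adjusted p = 0.0690) without siControl+DTPA replicate 1, and for Alpk1 in 12 alternatives (adjusted p = 0.0503 to 0.127). Depth limits Rrad and Alpk3 most in siControl cells, at 81 to 96 and 115 to 166 reads, and siControl+DTPA rests on 2 libraries.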
